A study of Schizosaccharomyces pombe with 39 samples.

Results

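Of 6544 genes counted in a depletion, recovery and second depletion experiment in the fission yeast Schizosaccharomyces pombe, 53 were chosen on measured values. They differed from untreated, in the same direction, in a first and in a second round of the treatment that depletes Epe1. After 48 h of recovery they lay close to their untreated level. The second depletion followed 24 h of recovery, not 48 h. L is the log2 ratio of a group's mean CPM (counts scaled to the library's total) plus 1 to the untreated mean plus 1. A member had an absolute L of at least 0.8 after 120 h of depletion and after the second depletion, with the same sign, an absolute L under 0.4 after 48 h of recovery and at least 5 CPM in its highest group. The rule leaves out genes near the tips of chromosomes I and II. In both depletions 44 members were lower and 9 were higher than untreated. At 24 h of recovery, from which the second depletion started, 25 of the 44 and 6 of the 9 had an absolute L under 0.4. So did 90.2% of the 5894 genes away from the chromosome ends with at least 5 CPM. Protein-coding genes made up 36 of the members and long non-coding RNAs (lncRNAs) 17. The members fell into 37 loci when those that overlapped or lay under 5000 bases apart were joined, so they are not 53 independent responses.

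Every strain lacked mst2, which encodes a histone acetyltransferase. The degron strain (genotype nmt81-epe1-3xFLAG-AID mst2D) expressed epe1 from the thiamine-repressible nmt81 promoter with an auxin-inducible degron tag, and also carried OsTIR1 and AtTIR1 fused to skp1 under the adh15 promoter, which recruit the tagged protein for destruction. Treatment with thiamine and a naphthaleneacetic acid (TN in the labels) was the depletion. Cells were grown in EMMC medium at 32 °C. The memory experiment sampled the degron strain untreated, after 120 h of TN, and at 24 h and 48 h of the recovery that followed. It was also sampled after a second TN treatment of 24 h, which by the titles began at 24 h of recovery. A separate time course sampled it at 0, 24, 48, 72, 96 and 120 h of TN, and the mst2D epe1D deletion strain was sampled as biological replicates 1 and 2 without TN. Each of the 13 groups had 3 libraries, and nothing in the labels says that these came from separate cultures, so p-values measure the spread between libraries, which may be technical. No strain without the degron was sampled under TN, so the response to TN itself and that to loss of Epe1 cannot be told apart in the depletion contrasts. In such bulk samples, fewer cells that express a gene and less RNA per cell cannot be told apart either.

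Epe1 is a JmjC-domain protein that restrains the spread of heterochromatin, the compact chromatin marked by methylation of histone H3 on lysine 9. Clr4 is the enzyme that places this mark in fission yeast. Thiamine, a vitamin taken up from the medium, represses the genes for its own synthesis and uptake in this organism. Ste11 is the transcription factor that switches on mating and meiosis when nutrients run low.

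Total counts per library were 14781022 to 21626064 in the memory experiment, 20347886 to 26976973 in the time course and 20733636 to 27900659 in the deletion strain. Epe1 protein, on which the degron acts, is not measured by these counts, which show RNA only. Reads of prl67, which overlaps the targeted gene, also count towards it, so epe1 less prl67 served as the check of its RNA. It stood at 104.5 to 115.9 CPM untreated, 23.77 to 30.2 CPM in the first depletion, 117.5 to 164.1 CPM and 89.24 to 112.5 CPM in the earlier and later recovery, and 7.78 to 19.84 CPM in the second depletion. The time course gave 72.39 to 87.38 CPM before TN and 28.79 to 42.6 CPM under it, and the deletion strain 15.68 to 19.97 CPM. The source of the counts left in the deletion strain was not tested. Memory libraries also differed in how their counts followed gene GC content. Across 5941 genes, which are not independent replicates, Spearman's rho of L with GC was 0.09 in the first depletion, 0.38 in the earlier and 0.51 in the later recovery, and 0.60 in the second depletion. The median L of the 5894 genes away from the ends with at least 5 CPM was 0.04 after 120 h of TN and -0.29 after the second depletion. The part of GC content and of that shift in membership was not tested. Replicate 2 of the second depletion had the lowest total (14781022). Its TMM factor, a scaling for library composition, was 0.629, against 0.878 to 1.119 in the other memory libraries. CPM values are printed without that scaling. Without this library, 51 of the 53 members still met the rule. After a GC trend was removed, 44 of the 53 still met the rule, and ste11, map1, pcl1, cnl2 and SPNCRNA.234 were among the 9 that did not. Members had a median GC content of 37.1%, against 36.5% over all genes with a value.

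How close the members lie to the thresholds is given here as a description. Just inside the depletion threshold were SPAC11D3.18c-antisense-1, with L of 0.80 after the second depletion, and SPAC4G9.22, with L of -0.83 after 120 h. Just outside were SPAC11D3.18c, with L of 0.80 (0.7979) after the second depletion, and hsp104, with L of -0.79 after 120 h. At the recovery threshold, rgs1 (-0.36) was inside and SPNCRNA.253 and SPNCRNA.366 (both -0.40) outside. At the level threshold, SPNCRNA.1221 with 5.95 CPM and SPNCRNA.394 with 8.33 CPM in their highest group were inside, and mat1-Mi with 3.13 CPM and SPNCRNA.362 with 2.88 CPM outside. In all, 122 genes away from the chromosome ends met the depletion and level parts of the rule, 91 lower and 31 higher. The recovery condition left 53 of them, and the exclusion of chromosome ends removed 17 genes that met every other condition.

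**Figure D1:**
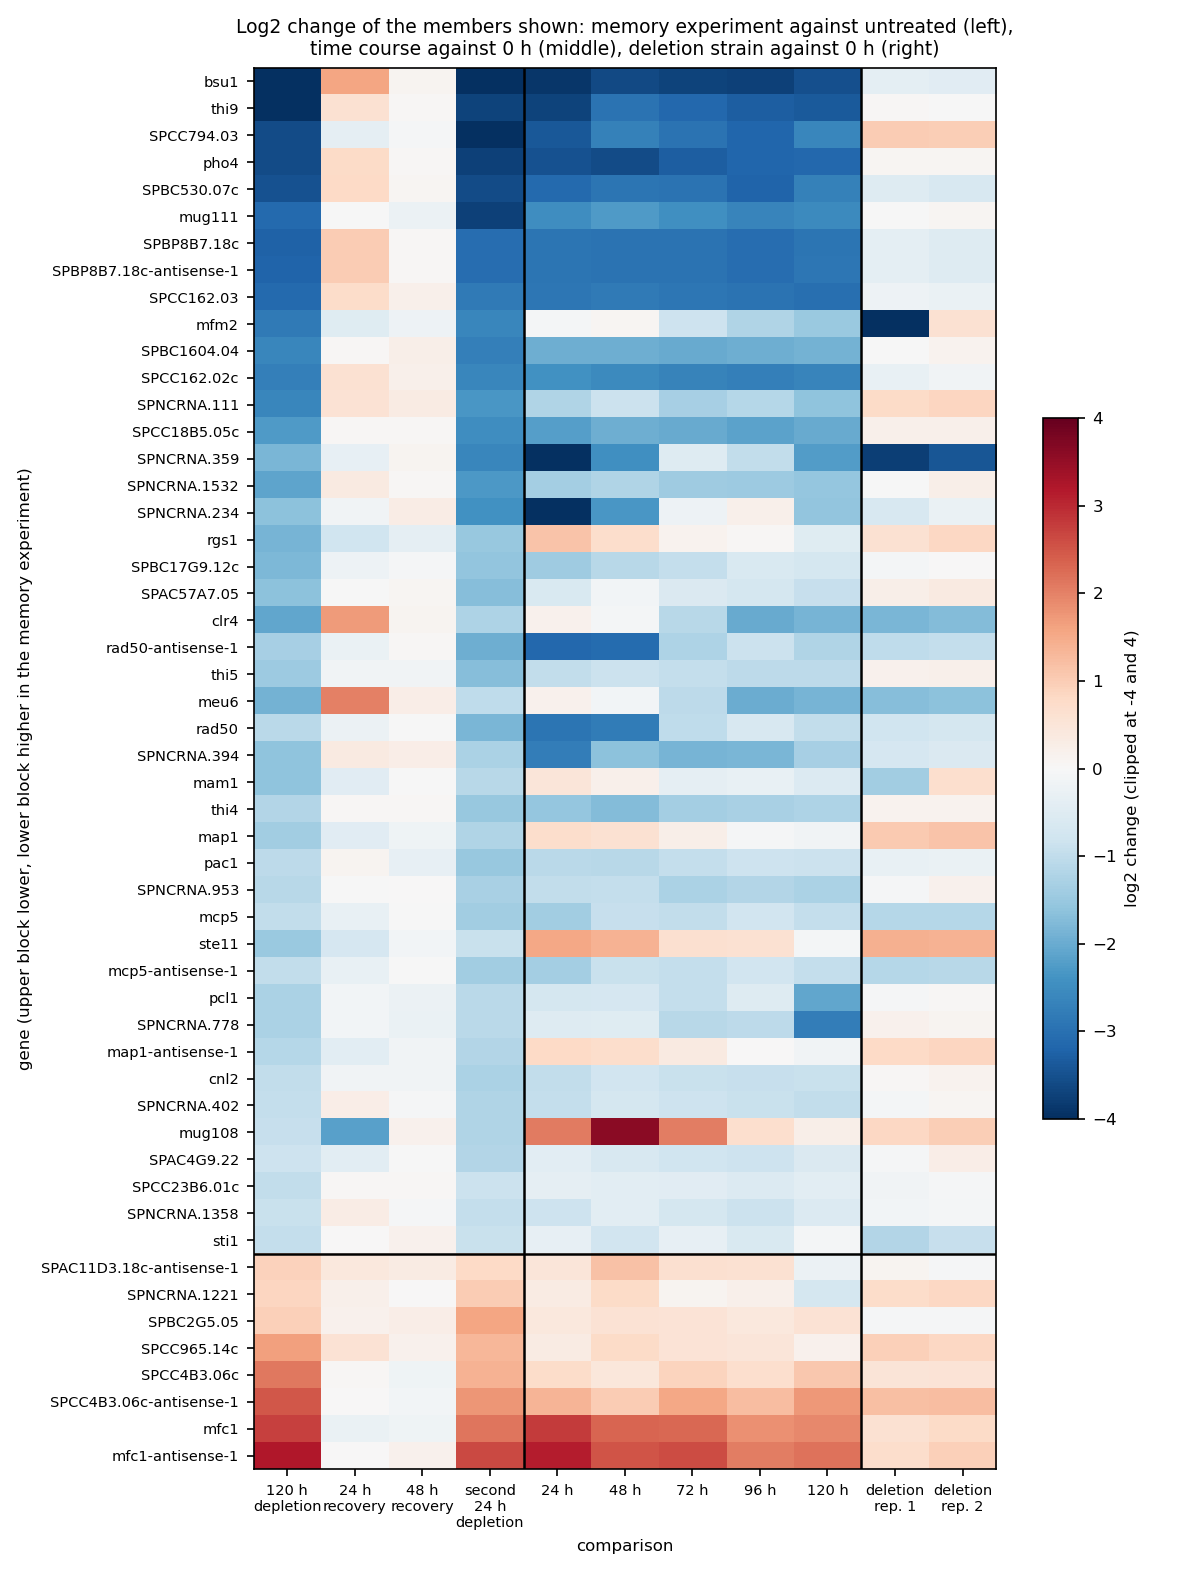
Log2 change of the members that can be reported by name (rows) in the memory experiment against untreated (4 left columns), in the time course against 0 h (5 middle columns) and in the deletion strain against 0 h (2 right columns). The rule fixed the memory columns other than 24 h of recovery. The thiamine genes bsu1, thi9 and pho4 stay blue through the whole time course, while ste11, rgs1, map1 and mug108 are red at 24 h and 48 h.

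The members were followed in the time course, whose libraries the rule did not use. Genes were tested with edgeR's quasi-likelihood test, and a gene was called at a Benjamini-Hochberg adjusted p under 0.05 over all 6664 genes tested. All 53 members passed the filter on low counts. Of the 44 genes that were lower in the memory experiment, 31 fell and 5 rose at 24 h, where 17.2% of all genes tested were called lower and 20.5% higher (37.7% in either direction). At 48 h the counts were again 31 and 5, over backgrounds of 22.4% and 25.6%. At 72 h 33 fell and 1 rose (backgrounds 5.57% and 10.2%), and the same counts were found at 96 h (4.94% and 7.56%). At 120 h 34 fell and 0 rose (7.76% and 6.38%), and 26 of the 34 fell at least 2-fold. The median log2 change of these 44 genes was -1.29 at 24 h and -1.30 at 120 h, beside 0.02 and 0.01 over all genes tested.

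Of the 9 genes that were higher in the memory experiment, between 5 (96 h and 120 h) and 7 (48 h) rose at each time, with 6 at 24 h and 72 h, and 0 fell. Across both directions, 25 lower members fell at all 5 times and 4 higher members rose at all 5, as 1.5% and 2.64% of all genes tested did. All 5 times were compared with the same 0 h libraries, so the 5 calls of a gene are not independent. With the test repeated under other settings and without each library in turn, 24 of the 25 and 3 of the 4 kept every one of these calls. The exceptions were SPNCRNA.394, whose 120 h call was lost without 0 h replicates 1 or 2 or any 120 h replicate (adjusted p 0.0589 to 0.0761), and SPCC4B3.06c-antisense-1. The M-factor exporter gene mam1 was called at none of the 5 times.

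**Figure D2:**
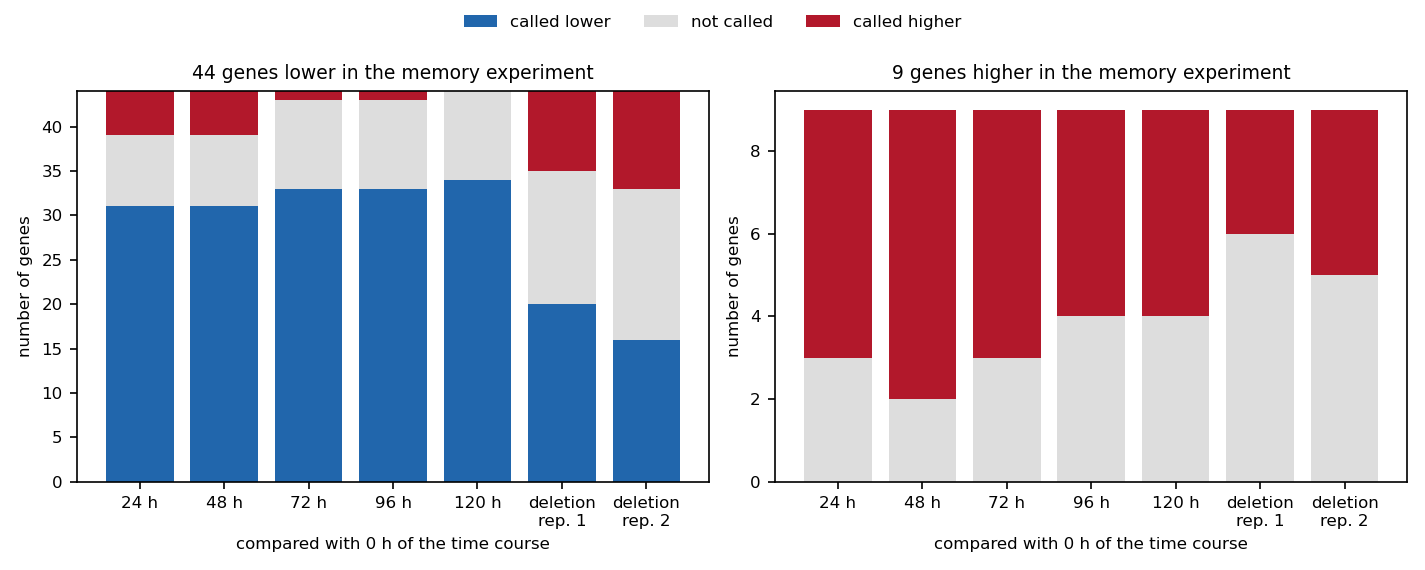
Number of genes called lower, called higher or not called (edgeR, adjusted p under 0.05) in the time course and the deletion strain, each against 0 h, for the 44 members that were lower and the 9 that were higher in the memory experiment. At 120 h 34 of the 44 were called lower and 0 higher, while in the deletion strain 20 and 16 were lower and 9 and 11 higher.

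The deletion strain gave another view of the members, although its strain background and its count table differ from those of the 0 h libraries and cannot be told apart from the deletion. Of the 44 lower members, 20 were lower and 9 higher in biological replicate 1, where 15.6% of the 6581 genes tested were called lower and 17.2% higher. In biological replicate 2, 16 were lower and 11 higher (backgrounds 14.8% and 16.5%). The median log2 change of the 44 was -0.08 and 0.06 in the 2 biological replicates. Among the 9 higher members, 3 and 4 were called higher. Only clr4, meu6, mcp5 with its antisense RNA, and SPNCRNA.359 were at least 2-fold lower in both biological replicates. The count of mcp5 was 95.5% to 100% of that of its antisense RNA, so the 2 are not separate measurements. The counts do not say from which strand they came. Of the 25 genes that fell at every time of TN, 11 were lower in both, 4 were higher in both and 9 were called in neither. Over all genes tested 11.4% were lower and 13.2% higher in both, and over the 96 genes that fell at every time 36.5% and 11.5%. These counts were 8 and 2 when calls lost in any alternative fit were left out.

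Proteins of thiamine or vitamin B6 uptake and metabolism are encoded by 10 of the members. This grouping was made after the values were seen. They are the thiamine transporter genes thi9 and SPCC794.03, the vitamin B6 importer gene bsu1, the thiamine pyrophosphate transporter gene SPBC1604.04, the thiamine-phosphate synthesis gene thi4, the phosphomethylpyrimidine kinase genes SPBP8B7.18c (thi201) and SPCC18B5.05c, the TENA/THI family gene SPBC530.07c, the thiamine-repressible acid phosphatase gene pho4, and thi5, which encodes a transcription factor of the pathway. All 10 fell at each of the 5 times. Their median log2 change lay between -3.10 (96 h) and -2.66 (120 h), and thi5 had the smallest change at 24 h (-0.98) and at 120 h (-1.04). SPBC1604.04 lies wholly inside its annotated antisense RNA, whose counts were 187.1% to 1216% of its own. The reads of SPBC1604.04 therefore cannot be told apart from those of that RNA. The gene cdb4 lies wholly inside thi4 on the opposite strand, over 1322 bases (37.7% of thi4). The part of cdb4 in the counts of thi4 was not tested.

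In the untreated memory libraries bsu1 (SPAC17A2.01, chromosome I, 3549682 to 3552067, plus strand, build ASM294v2) was at 807, 835 and 796 CPM. The first depletion gave 36.8, 32.9 and 36.4 CPM, 24 h of recovery 2665, 2553 and 1998 CPM, 48 h of recovery 783, 861 and 993 CPM, and the second depletion 41.7, 24.8 and 31.7 CPM. The libraries of both depletions lay far below every other library, and those of the 24 h recovery above all the untreated ones. Its time-course values were 448, 634 and 548 CPM at 0 h, 37.5, 35.8 and 42.3 CPM at 24 h, and 44.4, 50.5 and 50.6 CPM at 120 h. The log2 change was -3.90 at 24 h (SE 0.14, edgeR adjusted p 1.21e-11) and -3.51 at 120 h (SE 0.14, edgeR adjusted p 4.36e-11).

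The kinase gene thi201 was already low at 24 h, the first time sampled under TN. It was at 533, 591 and 630 CPM at 0 h, 83.7, 77.1 and 86.0 CPM at 24 h and 83.1, 75.7 and 78.0 CPM at 120 h, and its log2 change between 120 h and 24 h was 0.00 (SE 0.07, edgeR adjusted p 0.992). The count of thi201 was 96.1% to 100% of that of its annotated antisense RNA, which is therefore not a separate measurement. The acid phosphatase gene pho4 was at 107, 115 and 128 CPM at 24 h, against 1162, 1292 and 1246 CPM at 0 h, with no overlap. Its neighbour SPNCRNA.1358, which overlaps it by 114 bases, fell by 0.83 on the log2 scale at 24 h, and its 120 h value of -0.53 was not called.

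In the deletion strain, which had no TN, 3 of the same 10 genes were called higher and 3 lower in each biological replicate, and values ran from -0.52 to 1.01 in biological replicate 1 and from -0.66 to 0.98 in biological replicate 2. The thiamine transporter gene SPCC794.03 was the highest, at 712, 694 and 721 CPM in biological replicate 1 and 718, 699 and 643 CPM in biological replicate 2, against 311, 367 and 310 CPM at 0 h (log2 changes 1.01 and 0.98, SE 0.09 each, edgeR adjusted p 6.46e-06 and 8.98e-06). For thi5 (0.18 and 0.20) and SPCC18B5.05c (0.19 and 0.21) the changes were small. The thi5 call was lost without replicate 3 of biological replicate 1 (adjusted p 0.0611), and those of SPCC18B5.05c without 0 h replicate 1, that same library or replicate 2 of biological replicate 2 (0.0526 to 0.084). Of the list of 4 thiamine-repressed genes (thi4, thi9, bsu1 and pho4), 4 fell at every time, while 0 were higher and 1, bsu1, was lower in each deletion replicate. A wider list took genes named thi with a number, or with thiamine, TENA/THI or phosphomethylpyrimidine in their RefSeq product. Its members, with bsu1 added, are the 10 genes grouped above, so it is not separate support for that grouping. The list of 13 genes had 9 members, and 10 of the 13 fell at 24 h and at 120 h. The tenth was the thiamine pyrophosphokinase gene tnr3, with -0.17 at 24 h and -0.28 at 120 h.

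After 24 h of recovery, 11 of the 44 lower members were at least 0.4 above untreated in L, a position held by 1.03% of the 5894 genes away from the ends. No test was made, since the untreated libraries also chose the members. These libraries had the GC trend given above. The GC content of meu6, clr4, pho4, thi201, thi9 and bsu1 is 40.8%, 39.7%, 39.4%, 38.5%, 38.3% and 37.5%, above the median of 36.5% over all genes. That of SPBC530.07c is 36.4%. The part of this trend in these values was not tested. Overlapping pairs that share most of their counts are among the 11, so they are not 11 independent genes. Of the thiamine genes 5 of 10 were among them, namely bsu1 (1.56), thi201 (1.03), SPBC530.07c (0.80), pho4 (0.76) and thi9 (0.61). So were the neighbouring and divergent dehydrogenase genes SPCC162.03 (0.74) and SPCC162.02c (0.62), the lncRNA SPNCRNA.111 (0.57), the antisense RNA of thi201, and clr4 and meu6. By 48 h of recovery the 10 thiamine genes lay between -0.13 and 0.24.

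Several genes with no such annotation also fell at all 5 times. Meiotically upregulated gene mug111 was at 95.8, 89.8 and 99.9 CPM at 0 h, 18.1, 17.8 and 17.7 CPM at 24 h and 17.4, 16.8 and 15.8 CPM at 120 h. Its log2 change was -2.49 at 24 h (SE 0.10, edgeR adjusted p 4.03e-11), and in the deletion strain it was -0.03 and 0.08, neither called. Dehydrogenase gene SPCC162.03 had log2 changes of -2.88 at 24 h and -3.03 at 120 h, and its partner SPCC162.02c had -2.41 and -2.64. The gene cnl2, for a centromere protein, ends 12 bases before thi4 on the same strand and had a log2 change of -0.98 at 24 h, beside -1.56 for thi4. The counts do not show whether reads of one run into the other. The ribonuclease III gene pac1 had log2 changes of -1.07 at 24 h and -0.85 at 120 h, and was higher at 120 h than at 24 h (0.22, lost without any 1 of 5 libraries, adjusted p 0.0522 to 0.111). Unlike mug111, these 3 were called lower in both deletion replicates, with -0.22 and -0.27 for SPCC162.03, -0.29 and -0.14 for SPCC162.02c and -0.30 and -0.26 for pac1. The call of SPCC162.03 in biological replicate 1 was lost without 0 h replicate 2 (adjusted p 0.0557), and that of SPCC162.02c in biological replicate 2 in 6 alternatives (0.0548 to 0.136).

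**Figure D3:**
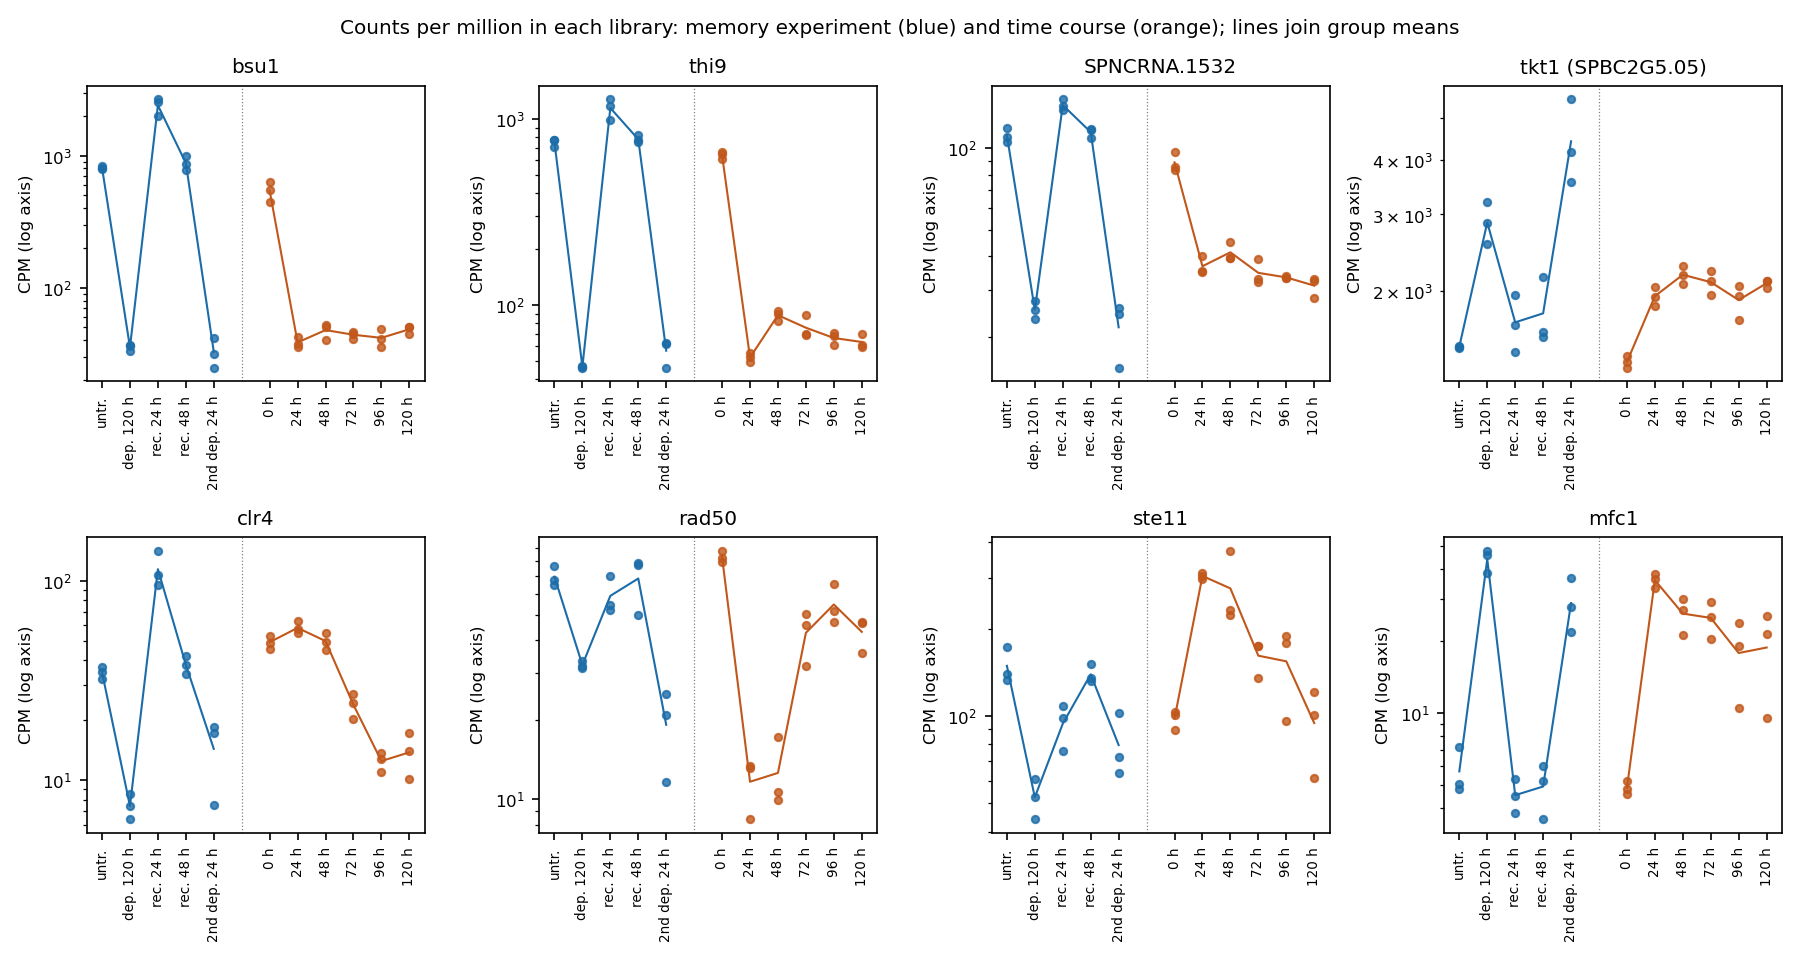
CPM (log axis) of 8 members in every library of the memory experiment (blue) and the time course (orange), with lines through the group means. The genes bsu1, thi9 and SPNCRNA.1532 are low in all TN libraries of both experiments, tkt1 and mfc1 are high in them, clr4 falls from 72 h, rad50 is lowest at 24 h and 48 h, and ste11 is high at 24 h and 48 h but low after 120 h of TN in the memory experiment.

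At one locus on chromosome II members moved in opposite directions. The lncRNA SPNCRNA.1532 (2584771 to 2586312, minus strand) lies 59 bases before SPBC2G5.05 (tkt1, 2586372 to 2588834, plus strand), which encodes transketolase, an enzyme that needs thiamine diphosphate as its cofactor. In the time course SPNCRNA.1532 was at 35.3, 34.8 and 39.8 CPM at 24 h, against 83.5, 85.4 and 97.4 CPM at 0 h, and tkt1 was at 2041, 1938 and 1849 CPM at 24 h, against 1415, 1366 and 1327 CPM at 0 h. Neither pair of groups overlapped. The log2 changes at 24 h were -1.36 (SE 0.09, edgeR adjusted p 5.63e-08) for the lncRNA and 0.42 (SE 0.08, edgeR adjusted p 0.00152) for tkt1, and at 120 h they were -1.53 and 0.58. Both kept their call at all 5 times and in each alternative fit. In the deletion strain they were -0.01 and 0.23 for SPNCRNA.1532 and -0.04 and -0.06 for tkt1, with 0 calls. The lncRNA SPNCRNA.402 overlaps SPNCRNA.1532 over 914 bases and holds 30.4% to 83.8% of its counts, so it is not independent of it. Another lncRNA, SPNCRNA.1531, spans all of SPNCRNA.1532 on the other strand and the first 65 bases of tkt1.

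The mating genes among the members took another course. They are ste11, map1 (a MADS-box transcription factor gene needed in P cells), mfm2 (an M-factor pheromone precursor), mam1 (the exporter of that pheromone) and rgs1 (a regulator of G-protein signalling in the pheromone response). This grouping too was made after the values were seen. In the memory experiment L was -2.82 to -1.39 after 120 h of TN and -2.61 to -0.90 after the second depletion. After 24 h of recovery all 5 were 0.44 to 0.80 below untreated, where 8.72% of the genes away from the ends were at least 0.4 below. Of the 44 lower members, 8 were that far below. Those libraries had the GC trend given above. The GC content of mfm2, map1, ste11 and rgs1 is 28.4%, 33.5%, 34.1% and 35.5%, below the median of 36.5% over all genes. That of mam1 is 36.6%, slightly above it. The part of the GC trend in these values was not tested.

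In the time course 3 of the 5, ste11, rgs1 and map1, rose at 24 h and at 48 h instead. Ste11 transcripts (SPBC32C12.02, chromosome II, 3983312 to 3987400, plus strand) were at 89.7, 104 and 101 CPM at 0 h, 305, 297 and 313 CPM at 24 h, 232, 224 and 372 CPM at 48 h, and 61.2, 101 and 122 CPM at 120 h. All the 24 h and 48 h libraries lay above those of 0 h, and the 120 h libraries spread around them. The log2 change of ste11 was 1.55 at 24 h (SE 0.25, edgeR adjusted p 2.80e-04) and -0.08 at 120 h (SE 0.25, edgeR adjusted p 0.874). After 120 h of TN in the memory experiment it was at 44.1, 60.8 and 52.7 CPM, against 174, 134 and 140 CPM untreated, and after the second 24 h depletion at 102, 72.5 and 63.8 CPM. For rgs1 the log2 change was 1.15 at 24 h and -0.48 at 120 h (edgeR adjusted p 5.89e-04 and 0.137), and for map1 0.72 and -0.13 (edgeR adjusted p 0.00826 and 0.73). The 48 h call of map1 was lost without 0 h replicate 3 or 48 h replicate 3 (adjusted p 0.0638 and 0.0653). All 5 mating genes fell between 24 h and 120 h, by 0.84 to 1.64 on the log2 scale, in a contrast where 20.7% of all genes tested were called lower (38.4% in either direction).

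In the wider lists the directions differed. Of 11 genes of the Ste11 pathway, 9 rose at 24 h and 8 at 48 h, 0 rose and 2 fell at 120 h, and all 11 were lower at 120 h than at 24 h (median -0.76). Over all genes tested 20.5% rose at 24 h, 25.6% rose at 48 h and 7.76% fell at 120 h. Of 7 M-cell genes, 5 rose at 24 h, 2 fell at 120 h and all 7 were lower at 120 h than at 24 h. Of 3 P-cell genes 1 rose and 2 fell at 24 h, and 2 were higher and 1 lower at 120 h than at 24 h. The first 2 lists hold 2 members each and the last 0, and all were written with earlier results of these data known.

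Ste11 binds the TR box, whose core is TTCTTTGTT. In windows from 250 bases before to 50 after the annotated starts in RefSeq (build ASM294v3), searched on both strands, this core was present in 3 of the 5 mating genes and in 5 of the 31 lower protein-coding members (16.1%), beside 2% of the 5112 windows of all protein-coding genes. The other 2 of the 5 were rad50 and thi5, which fell at 24 h, so the core was in genes of both directions. The matches are shown for the 3 mating genes that rose at 24 h and for rad50, which fell. Each stretch has 29 bases, read along the strand that carries the core, which is in capitals.
rgs1, chrI:679606-679634, plus strand, 187 bases before the start: gctacctgttTTCTTTGTTctgctttctc
rgs1, chrI:679665-679693, plus strand, 128 bases before the start: ttgcacaatgTTCTTTGTTccgttaaagt
rgs1, chrI:679708-679736, plus strand, 85 bases before the start: atttaatgatTTCTTTGTTtaaaagaaag
ste11, chrII:3983239-3983267, plus strand, 127 bases before the start: aaagttgaatTTCTTTGTTtgattttcat
map1, chrI:5292721-5292749, minus strand, 26 bases after the start: aaatgtgtgtTTCTTTGTTacaaattgta
rad50, chrI:3795956-3795984, minus strand, 24 bases after the start: gacacacaatTTCTTTGTTtcttctacta
The starts in the count files (ASM294v2) lie 741, 64 and 57 bases before these RefSeq starts for rgs1, ste11 and map1, so the rgs1 matches fall inside the gene as counted. A match is a description of letters and not of binding. Of the other motifs searched, GATAA was in 58.1% of the lower protein-coding members, against 59.5% of all windows, and CCAAT in 48.4%, against 42.2%. TGACGT was in 6.45%, against 5.91%, and CCCCTC in 6.45%, against 2.11%, which is 2 members each.

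The lncRNA SPNCRNA.111 starts 1205 bases from ste11 on the other strand and is annotated in RefSeq as rse1, a cis-acting repressor of ste11. In the time course it was at 119, 159 and 119 CPM at 24 h, against 255, 329 and 288 CPM at 0 h, a log2 change of -1.22 (SE 0.19, edgeR adjusted p 2.08e-04), at the time when ste11 rose. It was also lower at 120 h, by -1.62 (SE 0.19, edgeR adjusted p 3.07e-05), where ste11 was not called. In the memory experiment both were lower after 120 h of TN, with 51.6, 85.6 and 54.6 CPM of SPNCRNA.111, against 421, 408 and 366 CPM untreated. In the deletion strain both were higher: SPNCRNA.111 by 0.78 and 0.86 and ste11 by 1.41 and 1.39 on the log2 scale (edgeR adjusted p 0.003 and 0.00179, and 2.68e-04 and 3.08e-04). The pair was thus called in opposite directions at 24 h, and at 48 h too (-0.85 and 1.40), and in the same direction in the deletion strain.

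The pheromone genes differed between the biological replicates of the deletion strain. Precursor gene mfm2 was at 476, 451 and 451 CPM in biological replicate 2, against 12.9, 16.0 and 18.2 CPM in biological replicate 1, and mam1 at 206, 234 and 229 CPM against 53.1, 52.02 and 59.7 CPM. The 0 h libraries, at 276, 337 and 249 CPM of mfm2 and 117, 144 and 139 CPM of mam1, lay between them. Tested directly, biological replicate 2 was 4.89 above replicate 1 for mfm2 and 2.04 for mam1 on the log2 scale (SE 0.25 and 0.17, edgeR adjusted p 5.10e-06 and 9.29e-05). They were the only 2 members called in that contrast, in which 0.775% of all genes tested were called, and which was added after the values were seen. The mating type of the strains is not in the labels used here.

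Gene mug108 ran against its memory depletion values, as read against untreated. It was at 49.5, 39.4 and 39.8 CPM untreated but at 7.12, 7.87 and 7.47 CPM when the time course began, a 5.73-fold gap between groups that carry the same label of no treatment. It rose by 2.08 at 24 h and by 3.61 at 48 h on the log2 scale (edgeR adjusted p 1.37e-06 and 3.32e-09), and was not called at 120 h. In the memory experiment it was lowest after 24 h of recovery without TN, at 11.7, 8.23 and 6.56 CPM (L of -2.16). After the second depletion, which began there, it was at 20.5, 17.0 and 16.5 CPM. These libraries lay below untreated but above every library of that recovery, so mug108 did not recover and fall again. The gene lies wholly inside rga3 on the opposite strand, whose counts were 131% to 371% of its own, so its reads cannot be told apart from those of rga3. The untreated levels of 4 members (7.55%) differed at least 2-fold between the experiments, and so did those of 5.50% of all 6089 genes compared. Among them, besides mug108, were SPCC4B3.06c-antisense-1 (93.3 CPM in the memory experiment and 41.6 CPM in the time course) and the co-chaperone gene sti1 (462 and 1104 CPM).

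**Figure D4:**
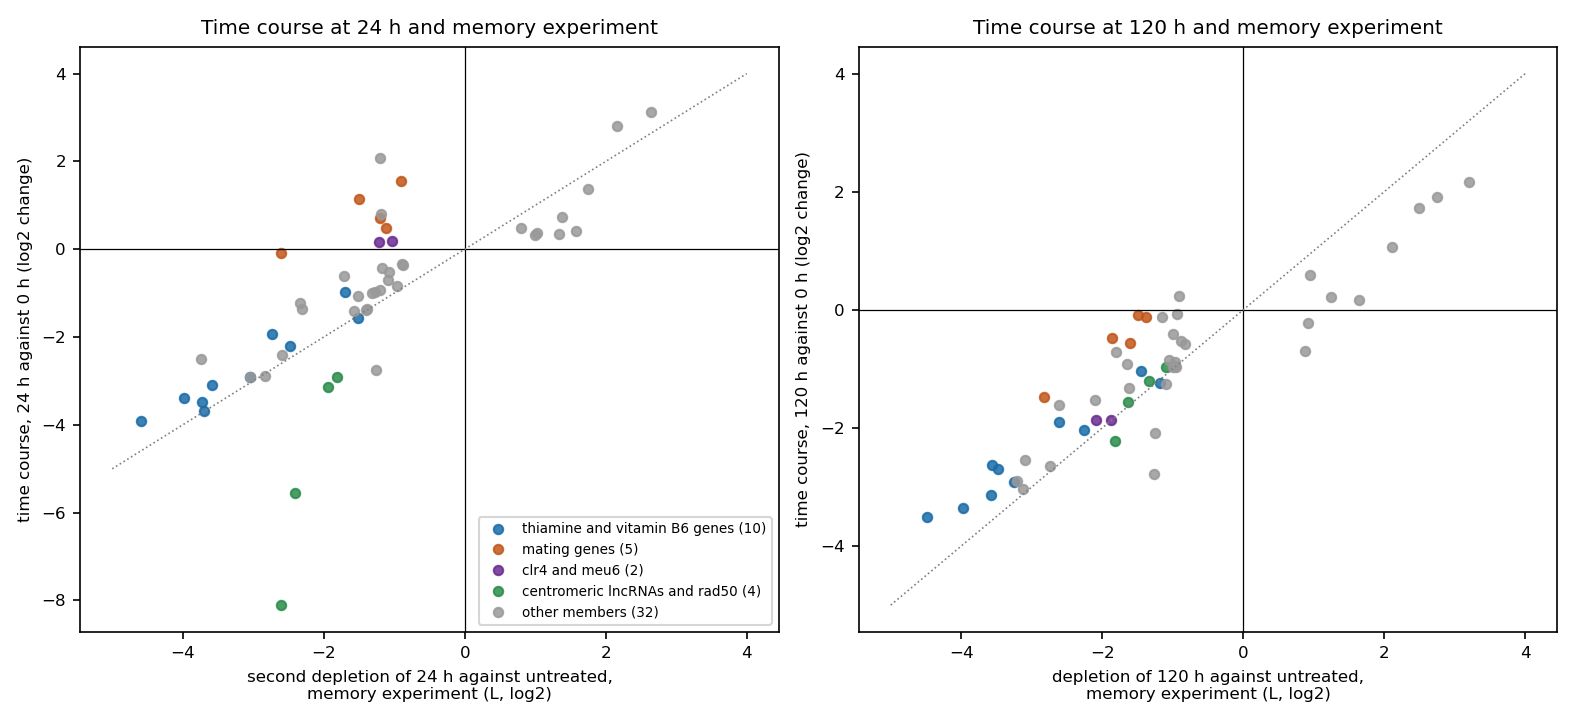
Log2 change of the 53 members in the time course (vertical) against L in the memory experiment (horizontal), at 24 h beside the second depletion of 24 h (left) and at 120 h beside the depletion of 120 h (right), with the line of equal values dotted. The thiamine genes lie near or above the line in both panels. At 120 h SPCC794.03 (-2.62 against L of -3.57) is about as far above it as the mating gene mam1 (-0.56 against L of -1.61). The mating genes lie above the line in both panels, further from it than the thiamine genes at 24 h. The centromeric lncRNAs and rad50 lie below it at 24 h and near it at 120 h.

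Members beside the centromeres responded most at 24 h and less later. SPNCRNA.234 (chromosome I, 3786105 to 3787136) and SPNCRNA.359 (chromosome II, 1602773 to 1604997) are annotated as centromeric lncRNAs, and rad50, which encodes a subunit of the DNA double-strand break repair complex, lies 4616 bases from SPNCRNA.234. At 24 h SPNCRNA.359 had 1, 0 and 3 counts, against 351, 444 and 332 counts at 0 h (14.4, 16.8 and 16.3 CPM). It was at 10.4, 12.1 and 12.4 CPM at 72 h and at 2.98, 3.78 and 3.61 CPM at 120 h, between the 24 h and 0 h levels. SPNCRNA.234 had 0, 6 and 2 counts at 24 h, against 126, 135 and 111 counts at 0 h (edgeR adjusted p 3.52e-07), was not called at 72 h and 96 h (-0.20 and 0.20), and was lower again at 120 h by -1.57 (SE 0.31, edgeR adjusted p 0.00261). These low counts limit the precision of their later values.

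The repair gene rad50 was at 79.2, 82.2 and 87.5 CPM at 0 h, 13.2, 13.4 and 8.37 CPM at 24 h, 17.2, 9.90 and 10.6 CPM at 48 h, 32.1, 50.5 and 45.7 CPM at 72 h, 47.1, 65.6 and 51.7 CPM at 96 h and 35.8, 46.6 and 47.0 CPM at 120 h. The 24 h and 48 h libraries were the lowest, and every later library lay between them and 0 h. The log2 change was -2.91 at 24 h (SE 0.24, edgeR adjusted p 3.04e-07), -0.64 at 96 h (not called, adjusted p 0.0625) and -0.97 at 120 h (SE 0.22, edgeR adjusted p 0.00664). It rose by 1.94 between 24 h and 120 h (edgeR adjusted p 2.99e-05). Outside its antisense RNA rad50 was at 20.1 ± 2.52 CPM at 0 h, 4.11 ± 1.40 CPM at 24 h and 15.5 ± 2.65 CPM at 120 h (SD, n = 3). After the second 24 h depletion of the memory experiment rad50 was at 24.98, 11.6 and 20.9 CPM, against 64.8, 67.6 and 77.0 CPM untreated. In the deletion strain it was lower by -0.80 and -0.71, and SPNCRNA.359 by -3.76 and -3.41, on the log2 scale (SE 0.08 each and 0.18 each). Outside the antisense RNA, rad50 was there at 17.6 ± 3.28 and 19.0 ± 0.91 CPM, against 20.1 ± 2.52 CPM at 0 h, and the libraries overlapped. Of the 11 centromeric lncRNAs tested in the time course, 11 fell at 24 h, where 17.2% of all genes tested were called lower. Those that are not members had log2 changes from -10.965 (SPNCRNA.366) to -3.190 (SPNCRNA.362), beside -8.105 and -5.562 for SPNCRNA.359 and SPNCRNA.234. The early fall was thus not particular to the members.

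Among the 44 lower members, 13 were higher at 120 h than at 24 h, 12 were lower and 19 were not called, in a contrast where 17.7% of all genes tested were called higher. Besides the centromeric members, the partial returns included thi4 (0.32), SPCC794.03 (0.77) and mcp5 (0.42), whose product (Num1 in RefSeq) anchors dynein at the cell cortex. Those called lower at 120 h but not at 24 h against 0 h were clr4, meu6, mfm2, the iron transporter gene pcl1 and SPNCRNA.778. Pcl1 was at 344, 297 and 336 CPM at 0 h, 182, 295 and 157 CPM at 24 h, and 55.6, 89.2 and 91.2 CPM at 120 h. Its log2 change was -0.70 at 24 h (edgeR adjusted p 0.0535) and -2.08 at 120 h (edgeR adjusted p 1.21e-04), and it was within 0.05 of 0 h in both deletion replicates.

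Gene meu6, for a pleckstrin homology domain protein, lies wholly within clr4 on the other strand and takes up 54.5% of it (chromosome II, clr4 from 453996 to 458487). Meu6 had 63.1% to 86.9% of the counts of clr4 in the libraries, so the 2 genes were also read apart. Outside meu6, clr4 was at 14.8 ± 2.29 CPM before TN and at 16.6 ± 1.16 and 15.7 ± 2.07 CPM in the first 48 h (SD, n = 3). It was at 6.62 ± 0.76 CPM by 72 h, 3.54 ± 0.53 CPM by 96 h and 4.16 ± 0.68 CPM by 120 h. The low level of 96 h and 120 h was met in the deletion strain, at 3.45 ± 0.84 and 4.04 ± 0.63 CPM.

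In the memory experiment, the count over all of clr4 was 141, 107 and 95.4 CPM after 24 h of recovery, against 35.1, 37.1 and 32.3 CPM untreated. Over meu6 it was 121, 92.6 and 81.4 CPM, against 23.5, 25.7 and 21.2 CPM. Outside meu6, however, clr4 was at 20.2, 14.0 and 14.1 CPM, against 11.6, 11.5 and 11.1 CPM untreated. The excess after 24 h of recovery was thus mostly in the stretch that both genes share, and the counts do not say from which strand it came. After the second depletion of 24 h clr4 outside meu6 was at 4.77, 1.42 and 3.94 CPM, whereas at 24 h of the time course it was at 15.4, 16.8 and 17.7 CPM. The labels name no earlier depletion for the time course, and the experiments share no library.

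**Figure D5:**
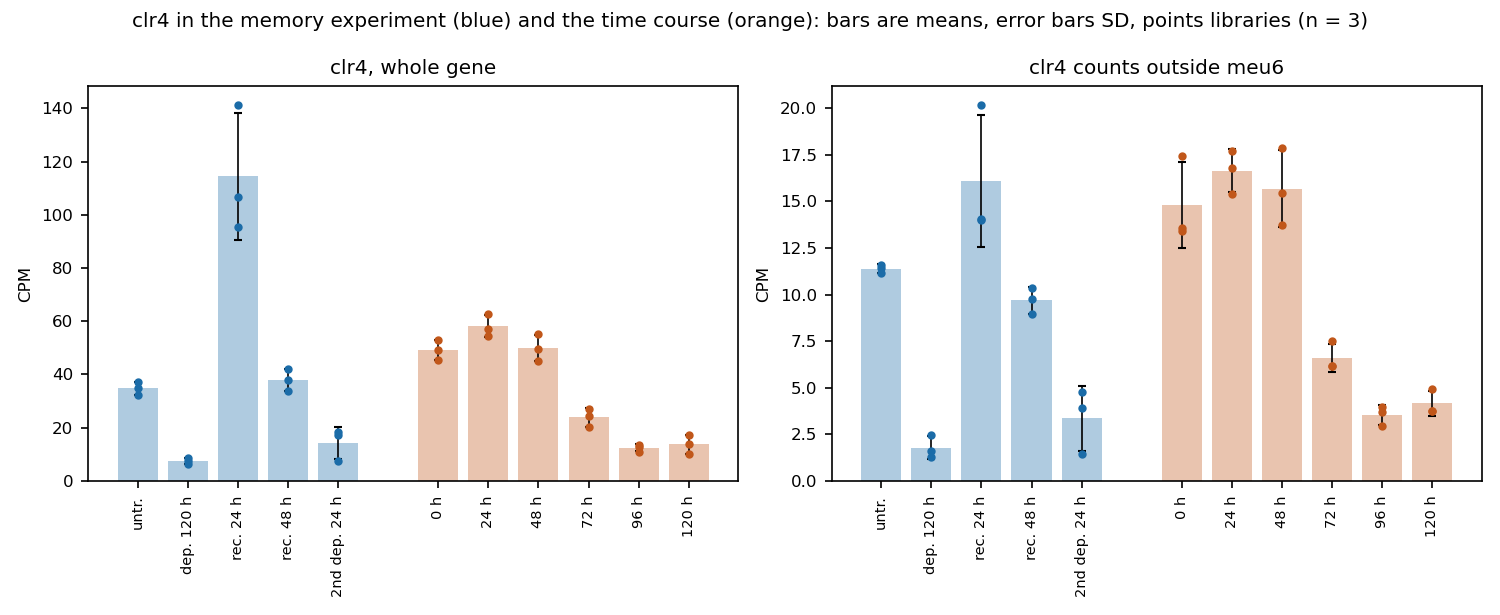
CPM of clr4 over the whole gene (left) and outside meu6 (right) in the memory experiment (blue) and the time course (orange), as means with SD (n = 3 libraries) and library points. The whole gene averages 114 CPM after 24 h of recovery, against 34.8 CPM untreated, while outside meu6 the values are 16.1 and 11.4 CPM.

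Among the 9 higher members, mfc1 and its antisense RNA had the largest changes. The product of mfc1 is a copper transporter of the forespore membrane. The gene was at 5.22, 4.58 and 4.82 CPM at 0 h, 33.4, 36.5 and 38.1 CPM at 24 h and 9.501, 21.5 and 25.5 CPM at 120 h, and all treated libraries lay above those of 0 h. Its log2 change was 2.80 at 24 h (SE 0.31, edgeR adjusted p 9.79e-06) and 1.91 at 120 h (SE 0.31, edgeR adjusted p 6.28e-04), and in the deletion strain it was 0.60 and 0.75, neither called. The antisense RNA held 61.4% to 99.2% of the counts of mfc1. Outside it, mfc1 was at 3.45 ± 0.71 CPM at 24 h, against 1.39 ± 0.27 CPM at 0 h, but at 0.34 ± 0.03 CPM after the second depletion, against 1.98 ± 0.71 CPM untreated (SD, n = 3). After 120 h of TN it was at 1.57 ± 1.17 CPM there, so the counts gained in both memory depletions lay in the shared stretch.

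SPCC4B3.06c, for an NADPH-dependent FMN reductase, and its antisense RNA overlap over 1509 bases. The antisense RNA was called higher at all 5 times (1.37 at 24 h and 1.72 at 120 h on the log2 scale) and in both deletion replicates (1.19 and 1.23, SE 0.36 each). Its libraries spread widely, with 54.8, 181 and 186 CPM at 120 h, against 38.7, 40.1 and 46.1 CPM at 0 h, and the 48 h and 96 h calls were lost without any 1 of the 0 h replicates (adjusted p 0.0589 to 0.127), as were those in the deletion strain (0.0641 to 0.0929). The cytosine deaminase gene SPCC965.14c, which lies wholly inside SPNCRNA.1286, rose at 48 h only (0.76) and was higher in the deletion strain (0.96 and 0.84). SPNCRNA.1221, inside SPCC191.06, also rose at 48 h only (0.77) and was higher in the deletion strain (0.72 and 0.83). Its 48 h call was lost without 0 h replicate 1 or 2 or 48 h replicate 1 (adjusted p 0.0641 to 0.0778).

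Lists of iron and haem uptake genes, iron regulators, P-cell genes, stress-induced genes, phosphate genes, nitrogen genes, hexose and glucose-repressed genes, flocculins and cytosolic ribosomal protein genes held 0 members. Members were 0.81% of all genes, so 0 or 1 members in a short list is near that share. Of the 18 heterochromatin factors 1, clr4, was a member, and at 120 h 3 of the 18 fell and 0 rose (7.76% and 6.38% of all genes). These 3 were the member clr4 itself, clr2 (-0.28) and epe1 (-0.69), the gene that the treatment targets. Of 7 meiotic genes 1, mcp5, was a member, and at 24 h 4 fell and 2 rose (17.2% and 20.5% of all genes). Of 1477 non-coding RNAs tested in the time course 17 were members, and 142 fell and 410 rose at 24 h, beside the same shares.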

How the data were processed

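RNA sequencing counts of 39 libraries in 13 groups of 3 were used. The authors deposited 3 tables of unnormalized gene counts. Their coordinates are in build ASM294v2, per the file headers. STAR and Trimmomatic are named in the submitters' processing notes, and use of strand is not given in the sources used here. A further 6 sample columns, which fit no library in the labels, were left aside. The treatment label of the second depletion libraries read "-", and their titles were followed. The column index within a group was read as the replicate number.

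CPM and L were computed from column totals (Python 3.11.15, pandas 2.3.3). Names, GC content and sequences came from RefSeq build ASM294v3 by gene identifier, which matched 6436 of the 6544 memory genes. Chromosomes I and II have the lengths of the rule there (5579133 and 4539804 bases). Tests used edgeR 4.0.16 in R 4.3.3 (TMM, filterByExpr, robust quasi-likelihood, 2-sided) over all genes. The time course fit held 18 libraries, and the deletion fit held both deletion replicates with 0 h and 120 h. The script was tested on simulated data. Counts of a gene outside its overlapping partner are differences of their counts. Named genes were the members with the largest L, those in gene lists, those with the smallest adjusted p at 24 h and 120 h, and those nearest each threshold. Others (SPNCRNA.1532, SPNCRNA.234, SPNCRNA.359, rad50, map1, rgs1, mug108, sti1 and cnl2 among them) were picked after their values were seen. Some members are counted but not reported by name here. Members and lists were chosen with earlier results of these data known. The same replicate numbers in the 72 h and 0 h groups deviated together (correlations 0.15 to 0.158), which was not so in each of the other contrasts. Some pairs of TN groups did so more strongly, such as 48 h with 72 h (0.431 to 0.739) and 72 h with 120 h (0.455 to 0.731). Others did not, such as 24 h with 48 h (-0.418 to 0.009). SE values come from the quasi-likelihood fit, and SD values give the spread between the libraries of a group. Alternatives were other normalizations (edgeR RLE), DESeq2 1.42.0, no filter, smaller fits, a replicate block, single libraries left out and other forms of the rule.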

Additional observations from a re-analysis of the deposited data

Results flagged for a closer look

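The pheromone precursor gene mfm2 differed between the biological replicates of the deletion strain, with biological replicate 2 above replicate 1 by 4.89 on the log2 scale (edgeR adjusted p 5.10e-06; all 3 libraries of replicate 2 above all 3 of replicate 1). The exporter gene mam1 differed in the same direction by 2.04 (edgeR adjusted p 9.29e-05; again with no overlap). In a test of the difference between 120 h and 24 h of the time course, 29 of the 53 members were called (edgeR, adjusted p under 0.05), 13 higher and 16 lower at 120 h, where 38.4% of all genes tested were called.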

How the results depend on the processing

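The number of members was 53, and 50 to 64 under other forms of the rule (51 to 64 with single libraries left out). Of the 53, 44 stayed with TMM-adjusted totals (53 in all) and 44 after a GC trend was removed (55 in all). The 9 dropped with TMM totals included ste11, SPNCRNA.111, meu6, pcl1, SPNCRNA.1358, sti1, SPCC23B6.01c and SPAC11D3.18c-antisense-1. Removal of the GC trend dropped ste11, map1, map1-antisense-1, cnl2, SPNCRNA.234, SPNCRNA.778, SPNCRNA.1358, SPAC4G9.22 and pcl1. Without 48 h recovery replicate 3 there were 64, and 41 members were in each of the 12 sets that left out a library.

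The counts of members called kept within 1.5 times the reported count in every alternative. Leaving out single libraries gave 39 to 41 at 24 h, 38 to 41 at 48 h, 34 to 40 at 72 h, 34 to 37 at 96 h, 37 to 40 at 120 h, 24 to 31 for 120 h against 24 h, and 26 to 29 and 25 to 27 in deletion replicates 1 and 2. A replicate block, with same-numbered libraries paired, gave 44, 45, 45, 40, 42, 31, 32 and 31 members in that order, against 42, 43, 40, 39, 39, 29, 32 and 31 without it. Of 295 calls of a member in a contrast, 246 held in every alternative, 39 were lost only where a library was left out and 10 in another setting, and 0 reversed. Another 41 results that were not called passed in some alternative. SPNCRNA.359, SPNCRNA.234, SPNCRNA.778 and SPNCRNA.1221 are limited by low counts.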
